A study of Homo sapiens with 6 samples.

Results

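Markers of glia, neurons and glioma stem cells were followed in U87 cells, an established human glioma line, after knockdown of PCGF1. The 45 markers were listed by symbol, with earlier results of these data known. They fall into 9 markers of astrocytes and radial glia, 11 of neural stem and progenitor cells, 8 of the oligodendrocyte lineage and 17 of neurons. Of these, 44 had probe sets that the platform annotation assigns to that gene alone, 153 probe sets in all, among 18132 genes measured. NEUROD1 was not analysed here. The comparison was between 3 arrays of U87 cells given a PCGF1-shRNA lentivirus and 3 arrays of U87 cells given an NC, or negative control, lentivirus. The labels call each transduced population a cell line and the arrays of each group biological replicates, but separate cultures are nowhere stated, and the p-values given here measure a spread that may be partly technical. Both lines were kept in DMEM containing fetal bovine serum. Every PCGF1-shRNA sample is also named T0 and every NC sample T1, without explanation, so whatever these stand for cannot be told apart from the knockdown. The labels do not say how many hairpins were used.

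Astrocytes, oligodendrocytes and neurons arise from common neural progenitors, and each lineage is recognised by the transcription factors that set it and the structural, membrane and signalling proteins its mature cells make. Gliomas express mixtures of these genes, and cells with progenitor features are marked by NES, SOX2, PROM1, MSI1 and OLIG2. PCGF1 is a subunit of the variant Polycomb complex PRC1.1, which is recruited to CpG islands and represses genes there, among them developmental regulators.

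A value is the log2 signal of a probe set on an array relative to its median over the 6 arrays, averaged over the probe sets of a gene. The deposited table holds only such centred values, so neither the abundance of a marker nor whether it is expressed at all can be read from it, and the labelled cell type could not be checked against its markers. A marker near 0 on every array may be evenly expressed or not expressed. PCGF1 itself was lower in the knockdown, at -0.27, -0.13 and -0.19 on the PCGF1-shRNA arrays, against 0.13, 0.27 and 0.29 on the NC arrays, with 1 probe set. No NC array came down to a PCGF1-shRNA array, and the PCGF1 signal with PCGF1 shRNA was 74.3% of that with NC (log2 fold change -0.43 ± 0.06, SE, adjusted p = 0.00410, limma). The two-sided exact permutation p was 0.1, the smallest that 3 against 3 arrays allow.

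Most lineage and stem cell markers did not pass the test, and those that did changed by less than 1.5-fold. CHI3L1, NFIB, CSPG4 and MAP2 rose and NCAM1 fell, 1 or 2 genes in each class. Together they were 5 of 44 markers, or 11.4%, where 11% of all genes tested were called (limma, Benjamini-Hochberg adjusted p under 0.05), so the markers were called about as often as genes in general. By direction, 6.36% of all genes were called higher and 4.63% lower. The median log2 fold change was -0.01 over the markers and -0.01 over all genes, and the median absolute log2 fold change was 0.07 over both. The groups did not overlap for 13 markers, or 29.5%, against 32.7% of all genes. In this bulk RNA, a change in the number of cells that express a marker cannot be told apart from a change in RNA per cell. Of the 5, CHI3L1 and MAP2 kept their call under all 12 alternatives run per gene, the 6 arrays left out singly among them.

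For the 39 markers that were not called, the 95% interval shows how large a change in the gene average the arrays leave possible. Log2 fold changes of these genes lay between -0.23 and 0.14. The interval lay within a 1.2-fold change in either direction for 33 of them, and within a 1.3-fold change for 38. The exception at 1.3-fold was OLIG2. At 1.2-fold, FABP7, NES, RBFOX3, SOX9 and SYP also had wider intervals. These intervals are for each gene alone and are not adjusted for the number of genes. Like the p-values, they rest on a spread between arrays that may be partly technical, and they may then be too narrow. They bound the gene average and not each probe set. GJA1, NFIA and SLC1A3 lay within 1.2-fold (log2 0.26), but each had a called probe set beyond it, at 0.31, 0.28 and 0.27. Those of GJA1 and NFIA are of a kind that can match other genes. Whether a marker with a narrow interval is expressed at all cannot be read from centred values.

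**Figure D1:**
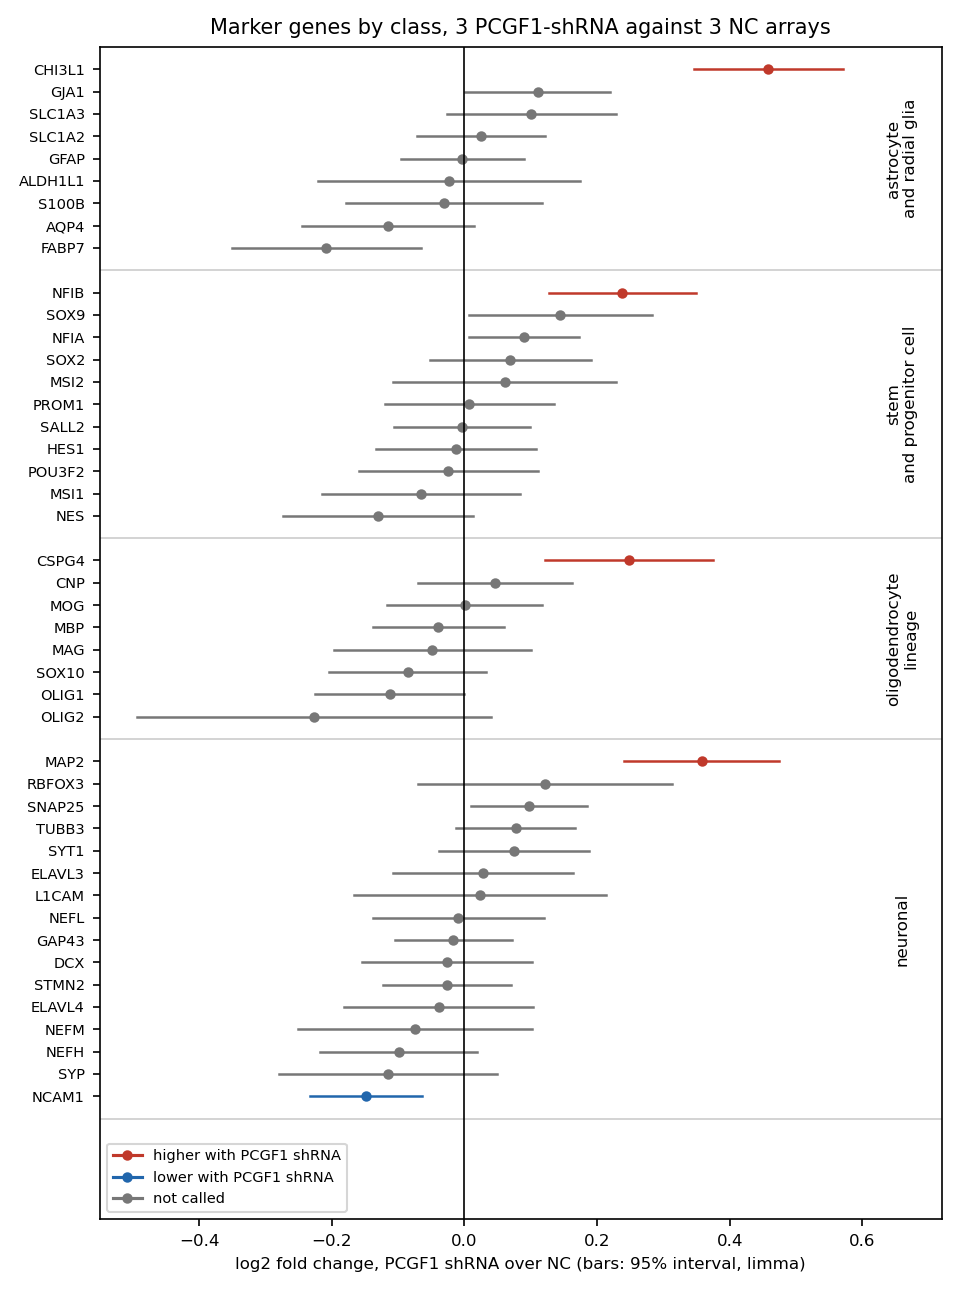
Log2 fold change of each of the 44 measured markers, PCGF1 shRNA over NC, by class and in order of size, with points for limma estimates from 3 against 3 arrays and bars for 95% intervals. CHI3L1, NFIB, CSPG4 and MAP2 lie to the right of 0 and NCAM1 to the left; the widest interval is that of OLIG2.

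Among the astrocyte and radial glia markers 1 of 9 rose, none fell and 8 did not pass. CHI3L1 encodes a secreted chitinase-like glycoprotein made by reactive astrocytes and abundant in mesenchymal-type gliomas. It stood at 0.29, 0.22 and 0.18 on the PCGF1-shRNA arrays, against -0.30, -0.18 and -0.21 on the NC arrays. All PCGF1-shRNA arrays were above all NC arrays, and the spread within a group was small beside the gap. The group means were 0.23 ± 0.06 with PCGF1 shRNA and -0.23 ± 0.06 with NC (SD, n = 3 each), a rise of 1.37-fold (95% interval 1.27 to 1.48, adjusted p = 0.00151 by limma). CHI3L1 was number 81 by size among the 1154 genes that rose, and it rests on 1 probe set.

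GFAP, the intermediate filament that defines mature astrocytes, was not called. Its average over 8 probe sets was 0.05, -0.02 and -0.05 on the PCGF1-shRNA arrays, against 0.01, -0.00 and -0.02 on the NC arrays, and the groups overlapped. Its fold was 0.998 (95% interval 0.936 to 1.06, adjusted p = 0.972), and its probe sets ranged only from -0.07 to 0.05. FABP7, a fatty acid binding protein of radial glia, was the marker nearest to a call without passing. It stood at -0.08, -0.04 and -0.04 on the PCGF1-shRNA arrays, against 0.06, 0.11 and 0.29 on the NC arrays. Every PCGF1-shRNA array was below every NC array, but the NC arrays were spread widely, and the log2 fold change of -0.21 ± 0.06 (SE) had an adjusted p = 0.0705.

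Of the membrane proteins of astrocytes, AQP4, the water channel of astrocyte endfeet, had a log2 fold change of -0.12 (adjusted p = 0.243). Its PCGF1-shRNA arrays were all below its NC arrays, and its most distant value, 0.19, was on NC array 2. The 5 AQP4 probe sets ran from -0.22 to 0.05, and none was called. The groups did not overlap in those at -0.22 and -0.20. SLC1A2 and SLC1A3, the glial glutamate transporters, were at 0.03 and 0.10, neither passing (adjusted p = 0.758 and 0.290). GJA1, the gap junction protein connexin of astrocytes, was at 0.11 (adjusted p = 0.183), with groups that did not overlap. S100B, a calcium-binding protein, and ALDH1L1, a folate enzyme, were at -0.03 and -0.02. Averages of SLC1A3 and GJA1 covered probe sets that disagreed. One of 5 SLC1A3 probe sets was called higher, at 0.27 ± 0.05, while the lowest stood at -0.02, and one of 4 GJA1 probe sets was called higher, at 0.31 ± 0.05, while the lowest stood at -0.03. That GJA1 probe set, the most variable of the gene, belongs to a kind that can match other genes, and taken alone for the gene it gave a call (log2 fold change 0.31, adjusted p = 0.0234).

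**Figure D2:**
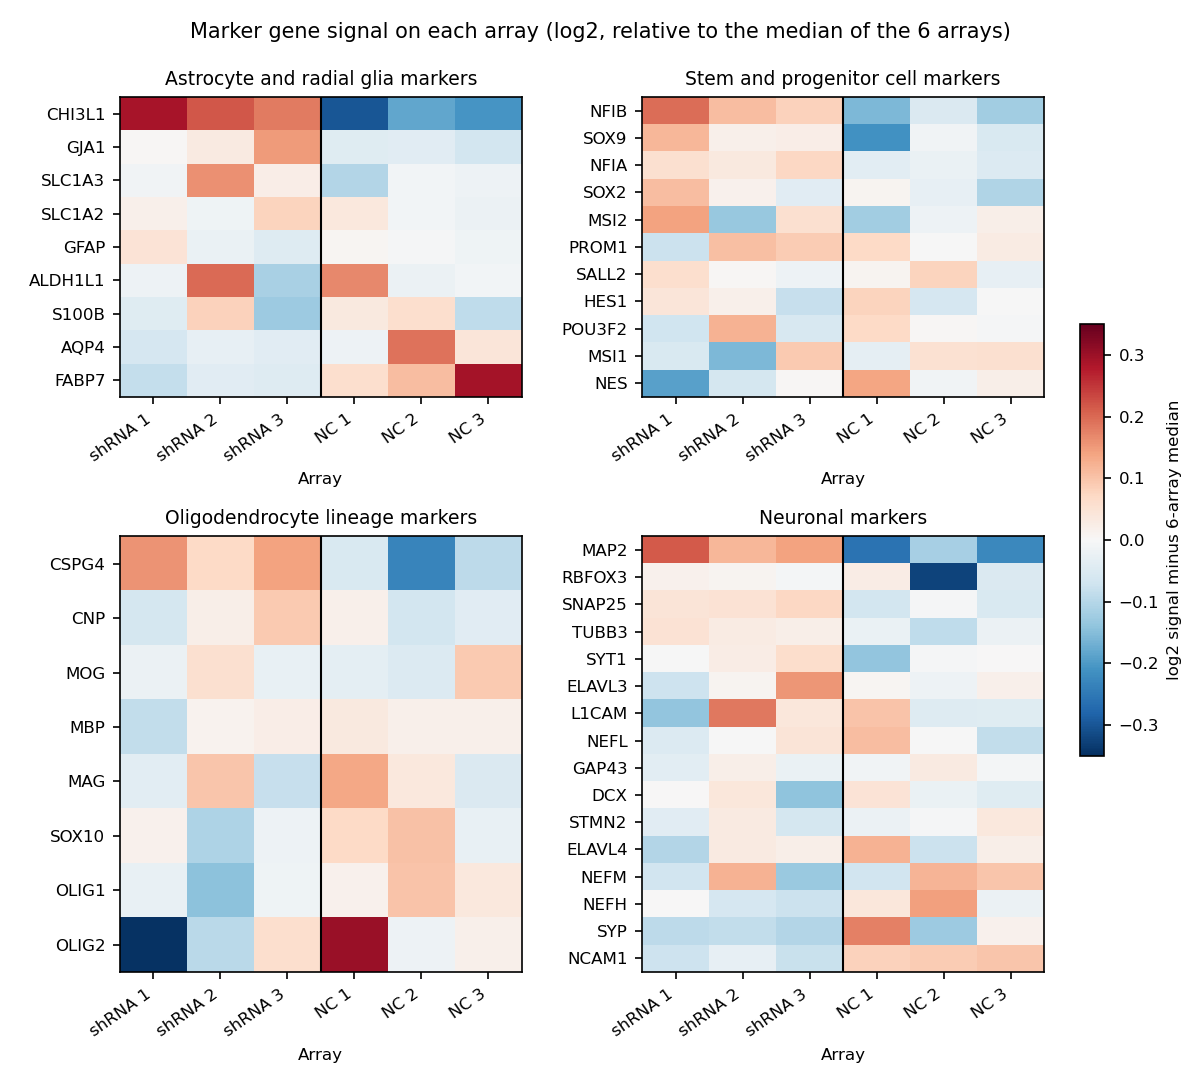
Signal of each measured marker (rows, ordered by log2 fold change within a class) on each of the 6 arrays (columns, PCGF1 shRNA left of the line and NC right of it), as log2 signal minus the median of the 6 arrays, the scale ending at 0.35 in either direction. The rows of CHI3L1, NFIB, CSPG4 and MAP2 change colour at the line, while GFAP, MOG and PROM1 show no such step.

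Of the stem and progenitor cell markers 1 of 11 rose, none fell and 10 did not pass. NFIB is a nuclear factor I transcription factor that drives gliogenesis. It stood at 0.20, 0.11 and 0.08 on the PCGF1-shRNA arrays, against -0.16, -0.05 and -0.12 on the NC arrays. All arrays with PCGF1 shRNA were above all NC arrays, and the rise was 1.18-fold (95% interval 1.09 to 1.27, log2 0.24 ± 0.05, SE, adjusted p = 0.0194 by limma). All 5 NFIB probe sets were positive, from 0.06 to 0.35, and 2 of them were called on their own. The call was lost without PCGF1-shRNA replicate 1 (adjusted p = 0.0610), NC replicate 1 (0.0642) or NC replicate 3 (0.0653), without the probe sets that can match other genes (0.0800), with the most variable probe set (0.0584), and with a block for the replicate number (0.0600).

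The family of NFIB was read together, NFIA from the same class, NFIX from a separate list of neural fate factors and NFIC, chosen after its value was seen, from that list too. NFIX stood at 0.17, 0.10 and 0.18 on the PCGF1-shRNA arrays, against -0.16, -0.14 and -0.11 on the NC arrays. It rose by 0.29 ± 0.04 (log2, SE, adjusted p = 0.00468) with no overlap, and its call held under all 12 alternatives. NFIA averaged 0.05 ± 0.02 with PCGF1 shRNA and -0.04 ± 0.01 with NC (SD, n = 3 each). Its groups did not overlap, but its log2 fold change of 0.09 ± 0.04 (SE) did not pass (adjusted p = 0.158). One of 7 NFIA probe sets was called higher, at 0.28 ± 0.07, and 2 were negative. The called NFIA probe set is of a kind that can match other genes. NFIC was at 0.01 (adjusted p = 0.886).

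The defining stem cell markers did not pass. NES, the intermediate filament nestin, stood at -0.19, -0.06 and 0.00 on the PCGF1-shRNA arrays, against 0.14, -0.01 and 0.02 on the NC arrays. The groups overlapped, and the log2 fold change was -0.13 ± 0.06 (SE, adjusted p = 0.231). The 2 NES probe sets differed and neither was called, at -0.24 without overlap (adjusted p = 0.101, limma) and at -0.02 with overlap. SOX2, a transcription factor that maintains neural stem cells, stood at 0.11, 0.02 and -0.04 on the PCGF1-shRNA arrays, against 0.01, -0.03 and -0.11 on the NC arrays. It overlapped between groups as well, at 0.07 ± 0.05 (adjusted p = 0.456). PROM1, a membrane glycoprotein used to sort glioma stem cells, was at 0.01 ± 0.06 (95% interval -0.12 to 0.14, adjusted p = 0.949).

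SOX9, which acts in gliogenesis, was at 0.14 ± 0.06 (adjusted p = 0.169), with 0.11, 0.02 and 0.02 on the PCGF1-shRNA arrays, against -0.21, -0.01 and -0.05 on the NC arrays. No overlap was seen, and NC array 1 lay farthest from the rest. The RNA-binding proteins MSI1 and MSI2 were at -0.07 and 0.06, and the transcription factors POU3F2 and SALL2, which with SOX2 and OLIG2 can reprogram glioma cells to a stem-like state, were at -0.02 and -0.00.

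HES1, a repressor that Notch signalling induces in progenitors, stood at 0.04, 0.02 and -0.08 on the PCGF1-shRNA arrays, against 0.08, -0.06 and -0.00 on the NC arrays, a log2 fold change of -0.01 ± 0.05 (SE, adjusted p = 0.912). Its groups overlapped, and its 5 probe sets lay between -0.03 and -0.00. The 250 bases before its start (RefSeq, GRCh38.p14, chr3:194135898-194136147, plus strand) hold TGGGAA, a sequence that RBPJ, the DNA-binding partner of Notch, can read. They are shown with each TGGGAA in capitals.
HES1: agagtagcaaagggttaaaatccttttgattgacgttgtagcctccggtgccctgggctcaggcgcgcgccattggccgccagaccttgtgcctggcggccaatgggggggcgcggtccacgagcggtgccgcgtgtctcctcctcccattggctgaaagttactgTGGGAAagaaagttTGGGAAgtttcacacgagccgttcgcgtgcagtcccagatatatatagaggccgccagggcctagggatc
The motif TGGGAA, searched on both strands, stood here at 84 and 70 bases before the start, both as printed. One or more copies were found in 20.8% of 35116 RefSeq promoters of this length and 2 or more in 2.9%. Only TGGGAA itself was searched, so other forms of an RBPJ site are not marked. A match describes letters and does not show binding.

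Of 26 Notch pathway genes, listed with earlier results of these data known, 1 rose, 2 fell and 23 did not pass, 11.5% called against the 11% of all genes, and the median log2 fold change was -0.01. LFNG, a glycosyltransferase that modifies Notch receptors, rose by 0.23 ± 0.06 (SE, adjusted p = 0.0480). MAML1, a coactivator of the Notch complex, fell by 0.20 ± 0.05 (adjusted p = 0.0442), and HEY1, another Notch-induced repressor, fell by 0.19 ± 0.05 (adjusted p = 0.0406). The 3 calls were close to the threshold. Leaving out any 1 array left 0 to 2 Notch genes called, fitting a block for the replicate number left 0, and leaving out probe sets that can match other genes also left 0. At an unadjusted p under 0.05, 7 Notch genes were higher and 3 lower, where 14.2% of all genes were higher and 12.4% lower.

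Of the oligodendrocyte lineage markers 1 of 8 rose, none fell and 7 did not pass. CSPG4 encodes the membrane proteoglycan of oligodendrocyte precursors, which pericytes also carry. It stood at 0.16, 0.07 and 0.14 on the PCGF1-shRNA arrays, against -0.05, -0.23 and -0.09 on the NC arrays. The groups did not overlap, and the rise was 1.19-fold (95% interval 1.09 to 1.3, log2 0.25 ± 0.05, SE, adjusted p = 0.0270 by limma). Its 2 probe sets were at 0.33 and 0.17, the first called. The call was lost without PCGF1-shRNA replicate 1 (adjusted p = 0.0876) or 3 (0.0876), or NC replicate 2 (0.0674) or 3 (0.0621).

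Some markers of pericytes and fibroblasts moved in the same direction as CSPG4. Of 8 such genes 4 rose and none fell, where 6.36% of all genes rose and 4.63% fell. COL1A1 rose by 0.61, COL1A2 by 0.60, LUM by 0.45 and PDGFRB by 0.28. ACTA2 (0.07), RGS5 (-0.02), DCN (-0.02) and THY1 (-0.15) did not pass. The mean signal of the 8 genes ranged from 0.09 to 0.17 over the PCGF1-shRNA arrays, against -0.11 to -0.10 over the NC arrays. Their part in the CSPG4 difference was not tested, and no level relative to background is known for any of them. None of 7 microglia and leukocyte genes, 6 endothelial genes and 4 epithelial genes was called by limma, and at an unadjusted p under 0.05 the counts were 0, 1 and 1, where 26.6% of all genes passed.

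Promoter sequence is shown for CHI3L1 and CSPG4, the called markers with 1 start site in the RefSeq table, because CpG-rich DNA is where PRC1.1 is known to be recruited. The windows are the 250 bases before the start, both on the minus strand of GRCh38.p14, chr1:203186705-203186954 and chr15:75712849-75713098, written 5′ to 3′ on the strand of the gene with each CG in capitals.
CHI3L1: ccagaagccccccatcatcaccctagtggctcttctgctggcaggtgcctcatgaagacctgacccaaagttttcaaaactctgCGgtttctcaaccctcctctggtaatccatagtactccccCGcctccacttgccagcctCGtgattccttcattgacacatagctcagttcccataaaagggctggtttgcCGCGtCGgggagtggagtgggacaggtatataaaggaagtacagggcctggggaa
CSPG4: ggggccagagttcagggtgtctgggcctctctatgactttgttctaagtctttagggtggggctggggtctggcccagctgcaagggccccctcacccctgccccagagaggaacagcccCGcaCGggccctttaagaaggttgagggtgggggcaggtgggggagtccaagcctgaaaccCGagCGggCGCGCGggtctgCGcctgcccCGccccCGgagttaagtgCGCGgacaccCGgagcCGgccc
CHI3L1 held 6 CG dinucleotides and CSPG4 14, against a median of 11 and quartiles of 3 and 23 over all 35116 promoters. CHI3L1, the marker that rose most, was below the median in CG count and CSPG4 above it. Over the 3 starts of MAP2 the count was 4 to 8, and over the 10 starts of NFIB 3 to 40. Bases after the start were not counted. Promoters were found for 30 of the 45 markers. The median over these genes, each taken at the median of its starts, was 8.25. The median of 11 over all promoters counts every start singly, so these medians are not of the same unit. No binding or methylation was measured here.

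The fate factors and myelin genes of the oligodendrocyte class did not pass. OLIG2, the factor that specifies oligodendrocyte precursors and marks glioma stem cells, had the widest spread of all markers. It stood at -0.35, -0.09 and 0.06 on the PCGF1-shRNA arrays, against 0.30, -0.02 and 0.02 on the NC arrays. The log2 fold change of -0.23 ± 0.12 (SE, 95% interval -0.49 to 0.04, adjusted p = 0.260) was set by 1 array of each group, the others overlapping. OLIG1 was at -0.11 and SOX10 at -0.09 (adjusted p = 0.188 and 0.338). OLIG1 did not overlap between groups, with -0.03, -0.14 and -0.02 on the PCGF1-shRNA arrays and 0.02, 0.10 and 0.04 on the NC arrays. MBP, a structural protein of myelin, stood at -0.08, 0.01 and 0.02 on the PCGF1-shRNA arrays, against 0.04, 0.02 and 0.02 on the NC arrays. It overlapped between groups, at -0.04 (adjusted p = 0.622). The myelin genes MOG and MAG were at 0.00 and -0.05. CNP, an enzyme of myelin, was at 0.05 (adjusted p = 0.619), and its 8 probe sets ran in both directions, -0.17 to 0.19. The highest was called on its own (0.19 ± 0.05, adjusted p = 0.0476) and the lowest was not (-0.17 ± 0.05, adjusted p = 0.0643), although the groups did not overlap in either. The called CNP probe set is of a kind that can match other genes, and the lowest is not.

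Of the neuronal markers 1 of 16 rose, 1 fell and 14 did not pass. MAP2, a microtubule-associated protein of dendrites, stood at 0.22, 0.12 and 0.14 on the PCGF1-shRNA arrays, against -0.26, -0.12 and -0.23 on the NC arrays. All PCGF1-shRNA arrays were above all NC arrays. The group means were 0.16 ± 0.05 with PCGF1 shRNA and -0.20 ± 0.07 with NC (SD, n = 3 each), a rise of 1.28-fold (95% interval 1.18 to 1.39, adjusted p = 0.00496 by limma). The average hides probe sets of different size, 2 of them called at 0.48 ± 0.06 and 0.46 ± 0.07, and the other not called at 0.13 ± 0.05.

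NCAM1, the neural cell adhesion molecule, was the marker that fell. It stood at -0.07, -0.03 and -0.08 on the PCGF1-shRNA arrays, against 0.08, 0.09 and 0.10 on the NC arrays. The groups were apart, but the fall was small, to 0.902 of the NC signal (95% interval 0.851 to 0.957, log2 -0.15 ± 0.04, SE, adjusted p = 0.0403 by limma). All 6 NCAM1 probe sets were negative, from -0.23 to -0.08, and none passed alone. No single array could be left out without losing the call (adjusted p 0.0594 to 0.123). It was also lost with the most variable probe set (0.341), without the probe sets that can match other genes (0.0847) and with a block for the replicate number (0.103).

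The remaining neuronal genes did not pass. TUBB3, the neuronal beta-tubulin, was at 0.08 ± 0.04 on 1 probe set, of a kind that can match other genes, with 0.05, 0.03 and 0.02 on the PCGF1-shRNA arrays, against -0.02, -0.09 and -0.02 on the NC arrays. Its groups did not overlap, but it did not pass (adjusted p = 0.252). RBFOX3, the nuclear antigen of mature neurons, was at 0.12 (adjusted p = 0.401), and NC array 2, at -0.32, held most of that difference. SYP, a synaptic vesicle protein, was at -0.12 (adjusted p = 0.35) and NEFH, the heavy neurofilament chain, at -0.10 (adjusted p = 0.269), with groups that overlapped in both. The 3 SYP probe sets ran from -0.30 to 0.04, none called, and the groups did not overlap in the lowest. SNAP25, a protein of synaptic vesicle fusion, stood at 0.05, 0.05 and 0.07 on the PCGF1-shRNA arrays, against -0.07, -0.00 and -0.05 on the NC arrays. Its groups did not overlap, at 0.10 ± 0.04 (adjusted p = 0.146). SYT1, the calcium sensor of synaptic release, was at 0.08 and the neurofilament chains NEFL and NEFM at -0.01 and -0.07. DCX, a microtubule protein of migrating neuroblasts, and STMN2 and GAP43, of growing axons, were at -0.03, -0.03 and -0.02. The adhesion molecule L1CAM was at 0.02, and the RNA-binding proteins ELAVL3 and ELAVL4 at 0.03 and -0.04.

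**Figure D3:**
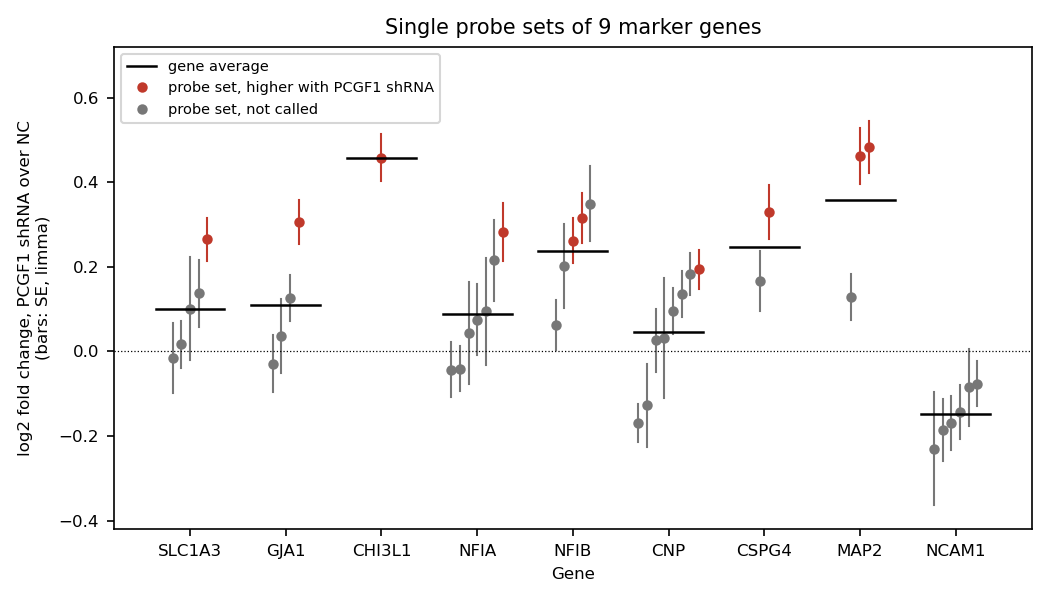
Log2 fold change, PCGF1 shRNA over NC, of every probe set of the 8 markers with a called probe set and of NCAM1, with points for probe sets, bars for limma standard errors and black lines for gene averages. Probe sets of CNP, GJA1, NFIA and SLC1A3 lie on both sides of 0, while those of MAP2, NFIB and CSPG4 are all positive and those of NCAM1 all negative.

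Taken as single probe sets, 10 of the 153 were called, or 6.54%, against 7.24% of all 49293 probe sets. All 10 were higher with PCGF1 shRNA, where 4.3% of all probe sets were called higher and 2.94% lower. The 10 called probe sets belonged to 8 genes, CHI3L1, SLC1A3 and GJA1 among astrocyte markers, NFIA and NFIB among progenitor markers, CSPG4 and CNP in the oligodendrocyte lineage, and MAP2. The groups did not overlap for 35 marker probe sets, or 22.9%, against 29.5% of all. At an unadjusted p under 0.05, 18 marker probe sets were higher and 9 lower, where 12.7% of all probe sets were higher and 10.5% lower.

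Regulators around these lineages gave few calls. REST, which represses neuronal genes outside neurons, was at 0.04 ± 0.06 (SE, adjusted p = 0.707), with -0.02, 0.14 and -0.04 on the PCGF1-shRNA arrays, against -0.05, -0.04 and 0.04 on the NC arrays, which overlapped. None of the 12 genes of its repressor complex list passed limma's test, and 4 had an unadjusted p under 0.05, as did 26.6% of all genes. With the most variable probe set per gene 2 passed, where 8.13% of all genes did. The median of that list was 0.04. Of 34 measured proneural and neural fate factors 3 rose and none fell, 8.82% called against 11%, with a median of 0.01. Besides NFIX these were ID3 and ID2, inhibitors of basic helix-loop-helix factors, at 0.60 ± 0.04 and 0.20 ± 0.04 (adjusted p = 0.000262 and 0.0144). The call of ID2 was lost without NC replicate 3 (adjusted p = 0.0588) and with a block for the replicate number (0.0510), while that of ID3 held under all 12 alternatives.

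Cytoskeletal genes of neural cells, not all of them particular to such cells, form a further list beside MAP2 and TUBB3. Of 20 measured intermediate filament, tubulin and microtubule genes 6 rose and none fell, 30% called where 11% of all genes were, although the median of the list was -0.00. DPYSL2, a microtubule-binding protein of growing axons, rose by 0.23 ± 0.04 (SE, adjusted p = 0.00973), MAP1A by 0.23 ± 0.05 (adjusted p = 0.0321) and the tubulin gene TUBB2A by 0.23 ± 0.04 (adjusted p = 0.0178). The call of DPYSL2 held under all 12 alternatives, but the count of 6 did not. It was 2 to 4 with any 1 array left out, 3 with the most variable probe set, 2 with a block for the replicate number and 1 without the probe sets that can match other genes. In these settings 5.4% to 8.14% of all genes were called. MAP1A lost its call under 7 of 12 alternatives and TUBB2A under 5 of 11. Tubulin genes are alike in sequence, so their probe sets may share signal.

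Of 19 measured genes of the mesenchymal glioma state, to which CHI3L1 also belongs, 2 rose and 2 fell, 21.1% called against the 11% of all genes, with a median of 0.00. TGFBI, a matrix protein, rose by 0.30 ± 0.04 (SE, adjusted p = 0.00277) and FOSL2, an AP-1 factor, by 0.23 ± 0.05 (adjusted p = 0.0182). CEBPB, a transcription factor of the mesenchymal program, fell by 0.23 ± 0.04 (adjusted p = 0.0157) and RELB, an NF-kB subunit, by 0.19 ± 0.05 (adjusted p = 0.0381). The state's surface and filament markers CD44 and VIM, chosen after their values were seen, were at -0.08 and -0.03 and did not pass. TGFBI held under all 12 alternatives, while calls were lost under 8 of 12 for RELB, 4 of 12 for FOSL2 and 3 of 11 for CEBPB, and the count of 4 was 2 or 3 with any 1 array left out.

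**Figure D4:**
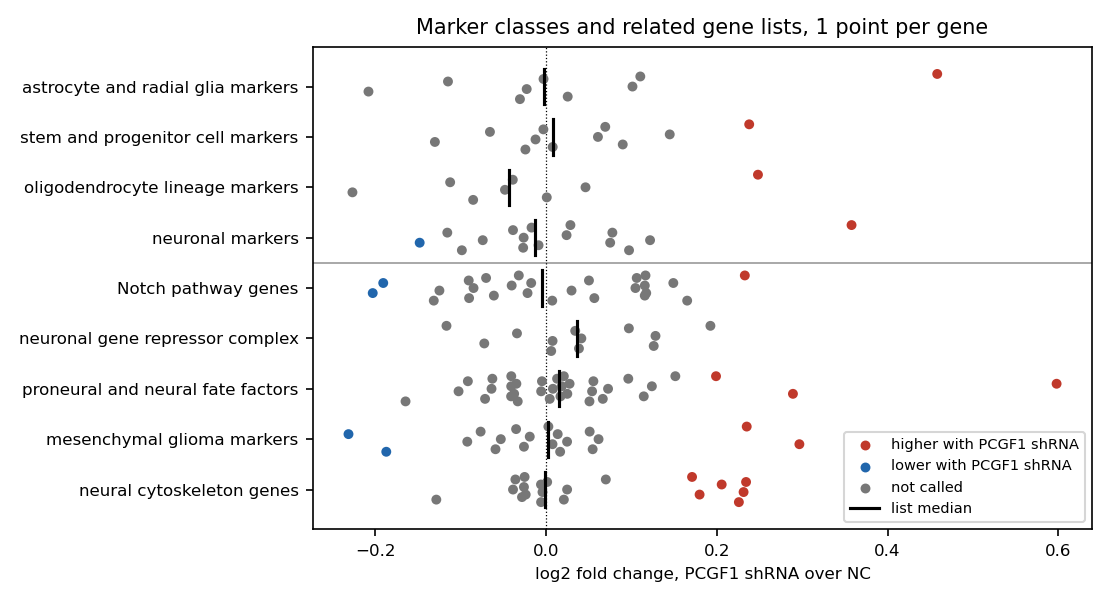
Log2 fold change, PCGF1 shRNA over NC, of each gene (points) in the 4 marker classes above the line and 5 related lists below it, with black bars for list medians. Medians lie between -0.04 and 0.04 in every list shown, and the point farthest right is ID3 at 0.60.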

How the data were processed

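Biotin-labelled cRNA from 6 samples was measured on Affymetrix arrays. The authors deposited log2 values made with RMA, per the submitters' processing notes (no version given). Log base 2 is taken from RMA's usual scale. The values show a further step that the sources used here do not give: the median of each probe set over the 6 arrays was 0 (largest departure 4.85e-07), so folds are known but levels are not. Array medians lay between -0.00238 and 0.00399, and no further normalization was applied.

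Of 49395 probe sets 102 controls were left out. The 44988 probe sets with 1 gene symbol in GEO's platform annotation, whose symbols may be outdated, were averaged per gene, giving 18132 genes. No probe set with several symbols names a marker. Groups were compared with limma 3.58.1 in R 4.3.3 (lmFit, eBayes, two-sided, no covariates), with Benjamini-Hochberg adjustment over all genes, or over all 49293 probe sets, and a call at an adjusted p under 0.05. The script was tested on simulated data. The number of arrays limits the precision.

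The members and lists were chosen with earlier results of these data known. Genes named are PCGF1, REST, every called marker, per class the 3 largest differences not called, 8 defining markers, markers with a called probe set and probe sets of opposite sign, and up to 3 called genes per direction in each other list. Other genes are given by value only. Alternatives were the most variable probe set per gene, no _s_at or _x_at probe sets, single probe sets, quantile normalization, median centring, array weights, a block for the replicate number, and leaving out each array. A planned filter on dim genes could not be applied to centred values. Sequences are RefSeq promoters of GRCh38.p14, and no build is given for the arrays in the sources used here.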

Additional observations from a re-analysis of the deposited data

How the results depend on the processing

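All 5 marker calls held with quantile normalization, with median centring and with array weights. With the most variable probe set per gene 4 markers were called, 3 of them the same, with GJA1 added. Once probe sets ending in _s_at or _x_at were dropped, 3 of the 42 markers left were called, and as single probe sets 8 genes had a called probe set. Leaving out 1 array gave 2 to 4 called markers (2 without PCGF1-shRNA replicate 1 or NC replicate 3) and 980 to 1402 called genes, against 5 and 1994 with all 6. CHI3L1 (log2 fold change 0.42 to 0.48, highest adjusted p = 0.0132) and MAP2 (0.33 to 0.48, highest adjusted p = 0.0261) passed under all 12 alternatives run per gene, and PCGF1 did too (highest adjusted p = 0.0195). With the replicate number as a block 3 markers and 1036 genes were called, the lost markers being NFIB (adjusted p = 0.0600) and NCAM1 (adjusted p = 0.103). Same-numbered arrays showed little shared deviation from their group means (correlations across genes of -0.0420, -0.0511 and 0.0116). Arrays of different number were as near to 0, at -0.0096 to 0.0520. The labels do not say whether same-numbered arrays were handled together, and correlations over all genes cannot show a link limited to some genes. None of the called genes named here changed sign under an alternative run. The cause of the lost calls was not tested; leaving out arrays and the block also leave fewer degrees of freedom. The filter on dim genes was not run, since the deposited values hold no brightness.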
